A study of Homo sapiens with 5 samples.

Results

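Kinesins are motor proteins that walk along microtubules, and intron retention in their genes was measured in DLD-1, an established line of human colorectal adenocarcinoma cells, after loss of a splicing factor. Members were all introns whose gene symbol starts with KIF or KIFC and a number, provided that the depth over the intron and the reads spliced across it summed to 10 or more in each library of a table. This gave 145 introns in 24 genes, of 33693 introns measured in all. Per table they were 65 introns in 17 genes for WBP11 RNAi, 91 in 19 genes for SNW1 RNAi and 98 in 23 genes for WBP11 auxin. Within the family, genes entered by symbol and introns by depth, from those that the deposited tables list. The tables list only part of the introns, by a rule not given in the sources used here. KIF5B intron 21 summed to 1107 in the control set against SNW1 RNAi, but was not listed for WBP11 RNAi, which shares that control. Whether that rule depended on retention is not known. The depth rule also counts reads inside the intron, so a retained intron can enter through them. Counts per gene cover tested introns only. The family itself was chosen with earlier results of these data known.

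The study asked which introns stay in polyadenylated RNA when the spliceosome-associated proteins WBP11 or SNW1 are missing. DLD-1 LacZeo cells received 100 nM siRNA against WBP11 or against SNW1 for 72 h, and both libraries were set against a control of the same cells whose treatment is given as none, although the file headers call it control RNAi. In the other pair, DLD-1 LacZeo osTIR1 cells, which carry a plant auxin receptor, had the endogenous WBP11 gene knocked out and replaced by a transgene with an auxin-inducible degron tag, and were set against DLD-1 LacZeo osTIR1 control cells. Both of these libraries had 500 µM auxin for 48 h. There was 1 library per group, and no library of the degron cells without auxin was analysed here, so differences between the cell lines and loss of WBP11 cannot be told apart. The RNAi tables share the control library, with equal depth and spliced reads at all 13412 introns listed in both.

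Most kinesins carry a conserved motor domain that couples ATP hydrolysis to steps along the microtubule. One set of the family builds the mitotic spindle, moves chromosomes and completes cytokinesis, and is made mainly by dividing cells. Another set carries vesicles, mitochondria and other cargo, usually towards the plus end of the microtubule, while C-terminal motors such as KIFC3 move towards the minus end. An intron that stays in the messenger RNA of such a gene commonly brings a premature stop codon into the reading frame.

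Each value is a retention ratio as deposited, given here in percent: the average depth over the intron, divided by that depth plus the reads spliced across it. A difference of at least 10 percentage points is called higher or lower, and "rose" is used only in that sense. With 1 library per group there was no replicate test. Intervals are 95% Wilson intervals for a ratio and 95% Newcombe intervals for a difference, and they cover counting error only, since reads are not independent molecules. For spliced reads summed over introns of a gene they are 95% exact binomial intervals. These treat introns of the same transcript as separate counts, so they are too narrow. Where the depth of an intron was 0, the limit printed is 3 counts out of the depth plus spliced reads, while the intervals and the plotted bars keep the Wilson bound. The listed introns of the tables held between 2987572 and 5527186 spliced reads per library. The median depth plus spliced reads at kinesin introns was 158 after WBP11 RNAi and 105 in its control, 88.2 after SNW1 RNAi and 122 in its control, and 165 after WBP11 auxin and 130 in the auxin control. The epithelial markers CDH1, KRT18 and KRT19 had listed introns in every table, and no listed intron belonged to a fibroblast, leukocyte or endothelial marker. Of 9 epithelial markers looked for, 3 were listed for WBP11 RNAi and 4 each for SNW1 RNAi and WBP11 auxin. EPCAM, KRT20, VIL1 and LGALS4 were listed in none, so absence of a marker says little here. WBP11 kept 6.75% of its spliced reads after WBP11 RNAi (20 reads against 312 in control) and SNW1 kept 10.2% after SNW1 RNAi (31 reads against 401 in control), relative to the totals of listed introns. In the auxin pair the single listed WBP11 intron had 103 reads against 235 in the auxin control, which does not measure the tagged protein.

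All 147 listed kinesin introns matched an intron of GENCODE release 29, and 143 lay within coding sequence. Sequences are shown for introns 12 and 13 of KIF22 and for intron 8 of KIF23. The KIF22 pair has the same length and differed widely after WBP11 auxin. After WBP11 RNAi neither rose, with differences of -0.253 points at intron 12 and 7.76 points at intron 13. Intron 12 was not tested after SNW1 RNAi. The KIF23 intron stayed within 2 points of control in every comparison. Positions throughout are of the hg38 build, GRCh38. Sequences were read from GENCODE 29 transcripts that keep the intron (plus strand). No KIFC2 sequence was read, although such transcripts keep some of its introns. Capitals mark the first and last 2 bases, where the splice sites lie.
KIF22 intron 13, chr16:29805175-29805262: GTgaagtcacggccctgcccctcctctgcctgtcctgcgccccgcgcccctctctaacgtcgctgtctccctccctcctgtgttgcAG
KIF22 intron 12, chr16:29805027-29805114: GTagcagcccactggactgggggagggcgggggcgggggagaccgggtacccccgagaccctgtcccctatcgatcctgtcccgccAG
KIF23 intron 8, chr15:69426183-69426335: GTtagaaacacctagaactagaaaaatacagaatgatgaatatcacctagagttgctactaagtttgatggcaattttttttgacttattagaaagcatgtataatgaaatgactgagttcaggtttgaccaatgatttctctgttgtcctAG

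The 2 KIF22 introns are each 88 bp long, with 68.2% G+C in intron 13 and 72.7% in intron 12. Of the 20 bases before the closing AG, 17 are pyrimidines in intron 13 and 15 in intron 12. Read in the frame of the preceding exon, intron 13 has a TAA stop codon that begins at its base 55, whereas intron 12 has no in-frame stop codon. KIF23 intron 8 is 153 bp long with 32.7% G+C, has 14 pyrimidines in the same window, and meets a TAG stop codon at base 3.

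After WBP11 RNAi few kinesin introns changed. Retention rose at 4 of 65 introns and fell at none, a share of 6.15% beside 9.07% of all introns tested, and 1.69% of all introns were lower. The rises were in KIFC2, a C-terminal kinesin known mainly from mouse neurons, and in KIF15 and KIF18A of the mitotic spindle. The median change of kinesin introns was 1.18 points, against 0.756 points over all introns. Retention stood above control at 43 of the 65, 66.2%, beside 59.6% of all introns. Without KIFC2 the count higher was 2 of 60, 3.33%.

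Among the transport kinesins, KIFC2 (ENSG00000167702.10) rose at 2 of its 5 introns. Its 79 bp intron 6 (chromosome 8, 144467780 to 144467858) was kept in 54.6% after WBP11 RNAi (42.4 to 66.2) and in 9.28% in control (5.73 to 14.7), a difference of 45.3 points (32.0 to 57.4). Its 74 bp intron 9 (144468651 to 144468724) was kept in 21.9% after WBP11 RNAi and in 6.77% in control, a difference of 15.1 points (3.02 to 32.3). The remaining 3 introns, 10, 15 and 16, stayed within 10 points, and intron 16 stood at 32.7% after WBP11 RNAi and 37.3% in control. The response was uneven over the 5 introns tested. Ratios per intron do not show whether these introns lie on the same RNA molecule.

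Among the mitotic kinesins, KIF15 (ENSG00000163808.15), a motor that helps to keep the spindle bipolar, had 30.6% retention after WBP11 RNAi and 8.33% in control at intron 21 (185 bp, chromosome 3, 44826190 to 44826374). The difference of 22.3 points had an interval from -9.16 to 45.9, since the control held only 12 reads of depth and splicing. KIF18A (ENSG00000121621.6), which dampens chromosome movements at the metaphase plate, had 11.8% after WBP11 RNAi and 1.02% in control at intron 7 (1388 bp, chromosome 11, 28083244 to 28084631), a difference of 10.7 points (-1.36 to 22.6). Both intervals include 0, so at this depth neither rise could be told from counting error. All 4 introns that rose carried an IRFinder warning, such as uneven cover, in at least 1 library. Among the 25 kinesin introns with no warning none rose, beside 8.96% of all introns without a warning.

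After SNW1 RNAi, 10 of 91 kinesin introns rose in 5 genes and none fell. This share, 10.99%, stood beside 16.6% of all introns tested, and 0.359% of all introns were lower. The rises were in KIFC2, KIF18B, KIF22, KIF15 and KIF21B. A small upward shift was common: retention stood above control at 82 of the 91 kinesin introns, 90.1%, beside 91.3% of all introns. The median change was 1.77 points in kinesins and 2.63 points over all introns. Without KIFC2 the count higher was 6 of 81, 7.41%. Among introns with no warning, 4 of 53 kinesin introns rose, 7.55%, beside 16.6% of all introns without a warning, and among those with a warning 6 of 38, 15.8%, beside 16.6%.

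KIFC2 rose at 4 of its 10 introns after SNW1 RNAi. Intron 7 (341 bp, 144467988 to 144468328) stood at 52.7% after SNW1 RNAi and 14.7% in control, a difference of 38.1 points (26.5 to 48.7). Intron 6 stood at 41.9% after SNW1 RNAi and 9.28% in control, a difference of 32.6 points (21.3 to 43.7), and intron 13 (91 bp, 144472047 to 144472137) at 28.9% after SNW1 RNAi and 5.10% in control, a difference of 23.8 points (15.4 to 32.9). Intron 16, which overlaps an annotated exon, stood at 57.3% after SNW1 RNAi and 37.3% in control, a difference of 19.96 points (5.30 to 33.6). Intron 9, which rose after WBP11 RNAi, was at 5.45% after SNW1 RNAi and 6.77% in control. The difference between the depletions at this intron was not tested, and their control is the same library.

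KIF18B (ENSG00000186185.12), a kinesin that limits the length of astral microtubules, rose at 3 of 7 introns after SNW1 RNAi. Its 76 bp intron 5 (chromosome 17, 44934431 to 44934506, minus strand) stood at 24.1% after SNW1 RNAi and 6.52% in control, a difference of 17.6 points (3.30 to 30.7). Intron 14 (489 bp, 44926500 to 44926988) stood at 17.5% after SNW1 RNAi and 0.990% in control, a difference of 16.6 points (5.99 to 27.6). Intron 3 (323 bp, 44934936 to 44935258) stood at 18.4% after SNW1 RNAi and 2.99% in control, a difference of 15.4 points (2.19 to 31.3). After WBP11 RNAi the same introns were at 8.43%, 2.68% and 7.53%, each within 10 points of the shared control. The difference between these depletions was not tested.

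KIF22 (ENSG00000079616.11), a chromokinesin that binds DNA and pushes chromosome arms outwards, rose at intron 13 after SNW1 RNAi. It was kept in 13.7% after SNW1 RNAi and in 0.505% in control, a difference of 13.2 points (8.05 to 18.5). The other 5 measured KIF22 introns differed by between 0.148 and 5.19 points. KIF15 intron 21 stood at 28.7% after SNW1 RNAi and again 8.33% in the shared control, a difference of 20.4 points (-10.8 to 44.3), which includes 0. KIF21B (ENSG00000116852.13), a kinesin that restrains microtubule growth, stood at 10.1% after SNW1 RNAi at intron 25 (77 bp, chromosome 1, 200986919 to 200986995, minus strand). In control its depth was 0 beside 80 spliced reads, which allows up to 3.75% by 3 counts, with a Wilson bound of 4.58%. That intron lay at the limit of the call, with a difference of 10.1 points (3.10 to 19.8).

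The WBP11 auxin pair had the most kinesin introns higher. Retention rose at 23 of 98 introns in 11 genes and fell at none, a share of 23.5% beside 13.8% of all introns tested, and 1.37% of all introns were lower. The rises fell in both functional sets: 13 of 54 introns of mitotic kinesins, 24.1%, and 10 of 43 of transport kinesins, 23.3%. KIFC2 held 6 of those 10, and the other transport kinesins had 4 of 31, 12.9%. The median change was 2.47 points in kinesins and 1.45 points over all introns. KIF22 held 5 of the rises in the mitotic set. Without KIFC2 the count over all kinesins was 17 of 86, 19.8%. Of the 23 introns, 16 carried a warning in at least 1 library. Among introns with no warning, 7 of 44 kinesin introns rose, 15.9%, beside 15.9% of all introns without a warning. Among introns with a warning it was 16 of 54, 29.6%, beside 12.4%. The part of the warnings in the result was not tested.

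**Figure D1:**
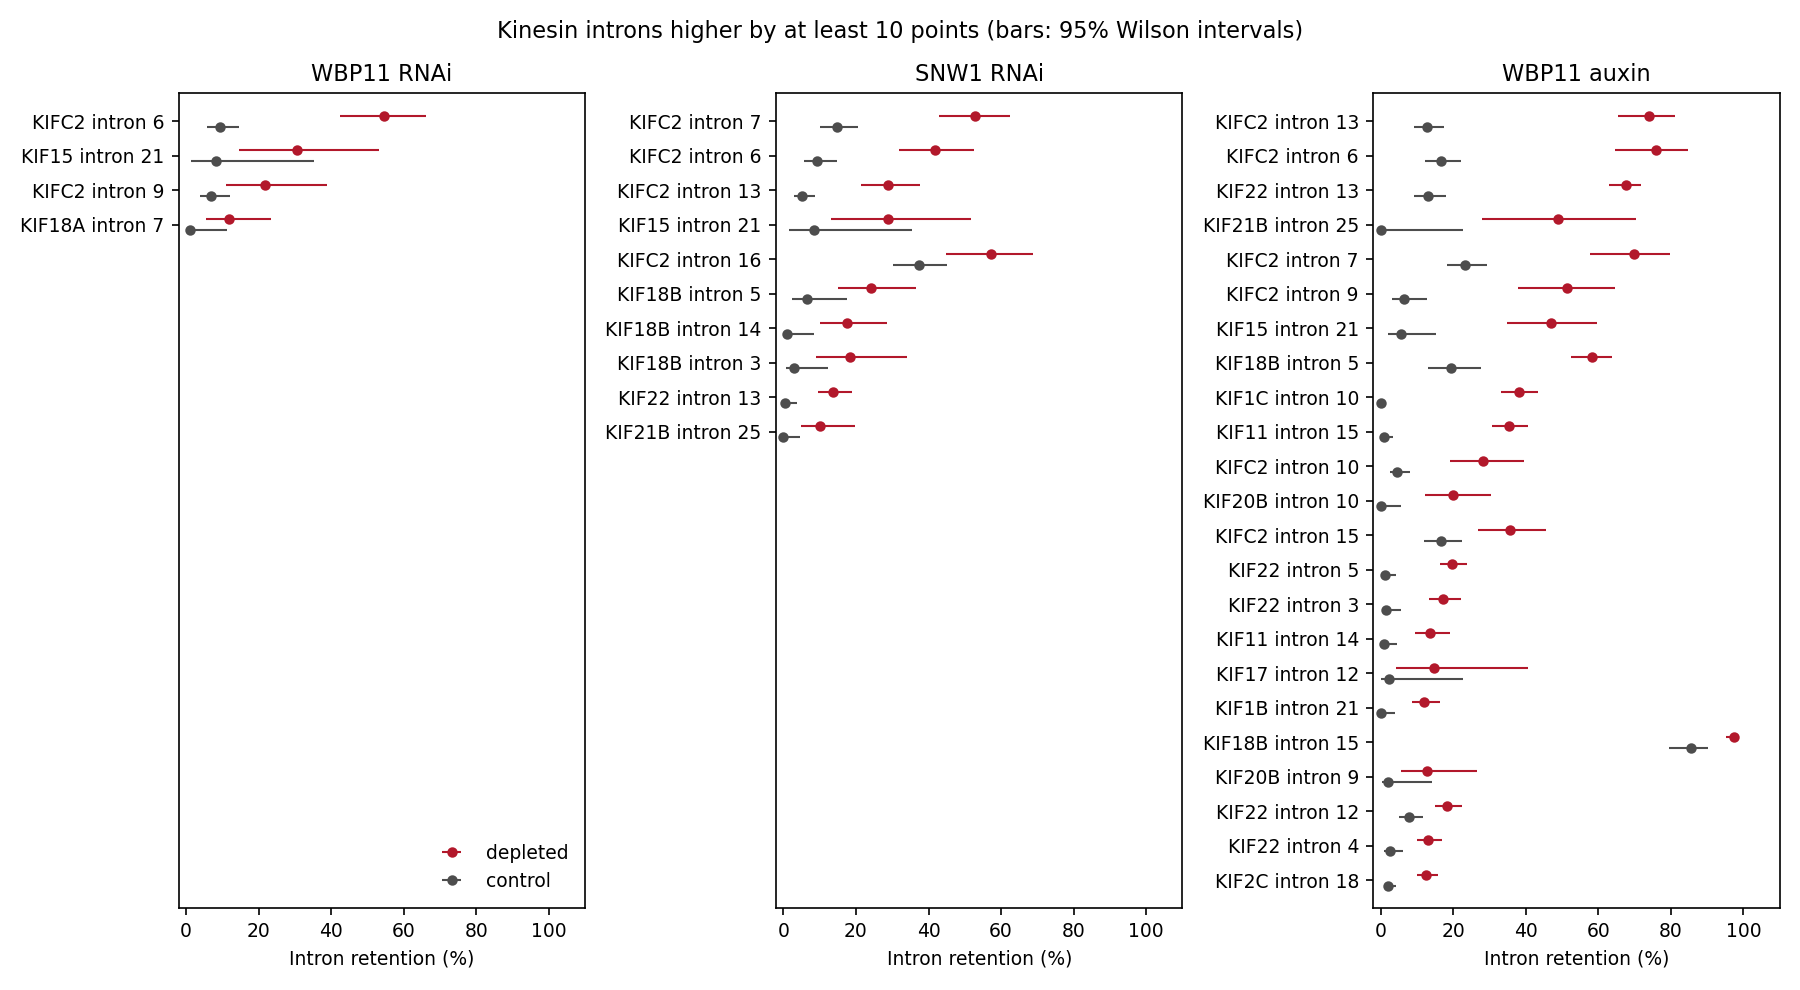
Intron retention in percent (x axis) of every kinesin intron that rose by at least 10 points in each comparison, ordered by the difference from top to bottom. Red points are the depleted library and grey points its control, with bars for 95% Wilson intervals. KIFC2 intron 6 and KIF15 intron 21 appear in all 3 panels, and the WBP11 auxin panel holds 23 introns against 4 after WBP11 RNAi and 10 after SNW1 RNAi.

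Among the mitotic kinesins after WBP11 auxin, KIF22 intron 13 was kept in 67.6% after WBP11 auxin and in 12.9% in the auxin control, a difference of 54.6 points (47.9 to 60.3). The listed columns held an intron depth of 306 and 133 spliced reads after WBP11 auxin, against a depth of 28.8 and 193 spliced reads in the auxin control. Recomputed from these, the difference was 56.7 points, so the deposited ratios do not follow exactly from them. Intron 12, printed beside it above and separated from it by a single exon, was at 18.4% after WBP11 auxin and 7.74% in the auxin control, a difference of 10.7 points (5.49 to 15.4). The interval of intron 13 lies wholly above that of intron 12. Introns 5, 3 and 4 of KIF22 were higher by 18.5, 15.7 and 10.5 points, and introns 6 and 8 by 6.32 and 2.54 points, which is within the limit.

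KIF15 intron 21 stood at 47.1% after WBP11 auxin and 5.59% in the auxin control, a difference of 41.5 points (25.9 to 54.6), with more reads than in the RNAi tables. Its other 2 introns differed by -0.38 and -1.81 points. KIF18B intron 5 stood at 58.3% after WBP11 auxin and 19.2% in the auxin control, a difference of 39.1 points (28.9 to 47.4). Introns 14 and 2 of KIF18B did not rise: intron 14 was at 1.98% after WBP11 auxin and 3.04% in the auxin control, and intron 2 at 2.34% after WBP11 auxin and 9.26% in the auxin control, a difference of -6.92 points (-13.8 to -2.17). That was the lowest difference of any kinesin intron tested in the 3 comparisons. KIF18B intron 15, which overlaps an annotated exon, was kept in 97.4% after WBP11 auxin and in 85.5% in the auxin control.

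KIF11 (ENSG00000138160.5), also called Eg5, slides spindle microtubules apart and is the target of antimitotic inhibitors. Its 77 bp intron 15 (chromosome 10, 92637310 to 92637386) was kept in 35.5% after WBP11 auxin and in 0.882% in the auxin control, a difference of 34.6 points (29.1 to 39.9). The intron just before it, intron 14 with 3388 bp, stood at 13.5% after WBP11 auxin and 0.990% in the auxin control, a difference of 12.5 points (7.12 to 18.1). After WBP11 RNAi, KIF11 intron 15 was at 1.20% against 0.923% in control. KIF20B, which acts in cytokinesis, rose at intron 10 (80 bp) to 19.8% after WBP11 auxin, with a depth of 0 beside 64 spliced reads in the auxin control, which allows up to 4.69%, and at intron 9 by 10.9 points (-3.17 to 24.6). KIF2C, the microtubule depolymerase MCAK, rose at intron 18 by 10.5 points (7.07 to 13.8), and its other 7 introns stayed within the limit.

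Among the transport kinesins after WBP11 auxin, KIFC2 intron 13 was kept in 74.0% after WBP11 auxin and in 12.8% in the auxin control, a difference of 61.2 points (51.3 to 69.2) and the largest of any kinesin intron here. Intron 6 stood at 76.0% after WBP11 auxin and 16.7% in the auxin control, a difference of 59.3 points (46.6 to 69.0). Intron 7 stood at 69.7% after WBP11 auxin and 23.3% in the auxin control, a difference of 46.4 points (32.8 to 57.6). Intron 9 stood at 51.2% after WBP11 auxin and 6.49% in the auxin control, a difference of 44.7 points (30.0 to 58.4). Introns 10 and 15 of KIFC2 were higher by 23.6 and 19.2 points.

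KIF1C (ENSG00000129250.10), a motor for dense-core vesicles and integrins, stood at 38.1% after WBP11 auxin at its 81 bp intron 10 (chromosome 17, 5003917 to 5003997), with a depth of 132 beside 214 spliced reads. The auxin control had a depth of 0 beside 394 spliced reads, which allows up to 0.761% by 3 counts (Wilson bound 0.966%), and the difference was 38.1 points (33.1 to 43.3). The same KIF1C intron was at 6.51% after WBP11 RNAi and 1.09% after SNW1 RNAi, against 0.222% in their control. KIF21B intron 25 stood at 48.9% after WBP11 auxin with a depth of 8.63 and 9 spliced reads. Its spliced reads alone were below the minimum of 10, so it was tested only through its depth. In the auxin control it had a depth of 0 beside 13 spliced reads, which allows up to 23.1% by 3 counts (Wilson bound 22.8%), so the difference of 48.9 points had a wide interval (17.97 to 70.3). KIF1B, a carrier of mitochondria and synaptic vesicle precursors, rose at intron 21 by 11.9 points (6.76 to 16.5), and KIF17 at intron 12 by 12.4 points (-10.6 to 38.2).

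**Figure D2:**
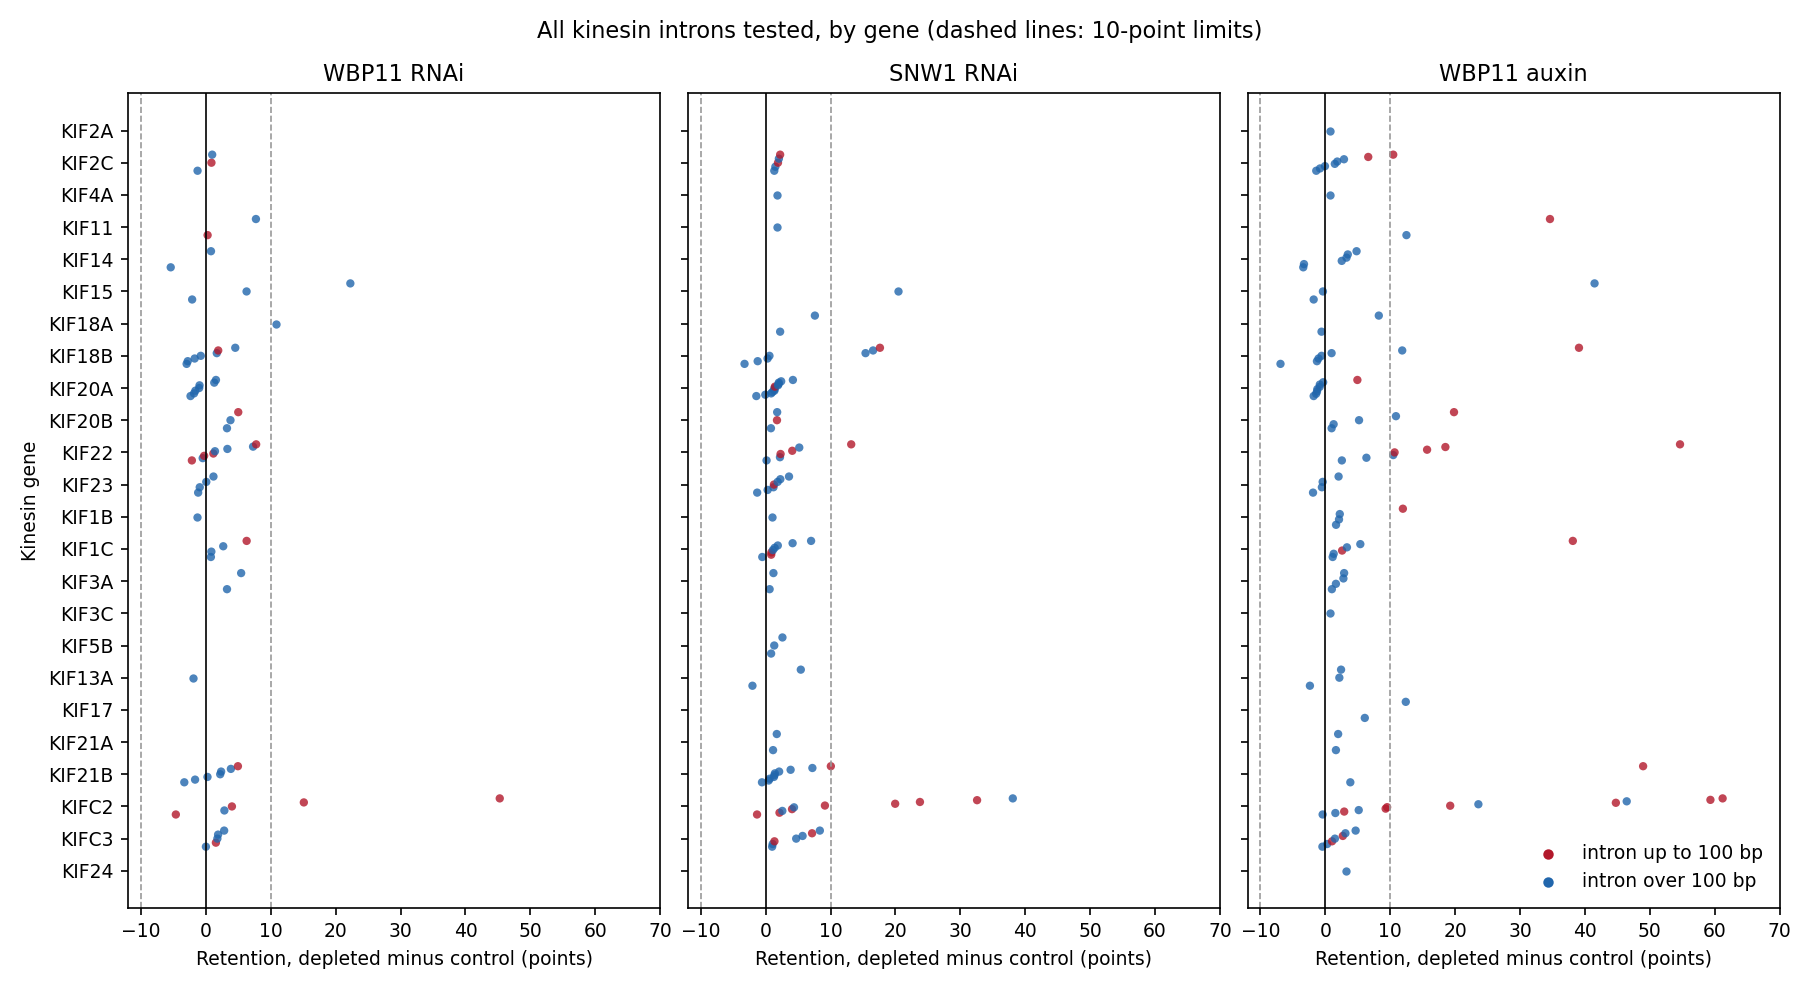
Difference in retention, depleted minus control in percentage points (x axis), of every kinesin intron tested, by gene (y axis: mitotic kinesins at the top, then transport kinesins and KIF24). Each point is an intron, red up to 100 bp and blue above, and dashed lines mark 10 points. No point lies beyond the lower limit, and the points beyond the upper limit are spread over 12 of the 24 genes.

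Over the 3 comparisons, 27 different kinesin introns in 12 genes rose at least once. The matching share over all introns was not taken. All 27 lie in coding sequence, as do nearly all listed kinesin introns. None of the 27 overlaps an exon of another gene, beside only 6 of the 147 listed kinesin introns, so neither trait sets them apart. A length divisible by 3, which leaves the frame of the downstream exons as it was, was found in 6 of them. That share was not set against other introns, and stop codons within these 6 were not looked for. The 12 genes without a rise were KIF13A, KIF14, KIF20A, KIF21A, KIF23, KIF24, KIF2A, KIF3A, KIF3C, KIF4A, KIF5B and KIFC3. Several of these had 1 or 2 introns measured, so little can be said of them.

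KIF20A and KIF23 were better covered. KIF20A, which brings the chromosomal passenger complex to the central spindle, had differences of -2.36 to 1.56 points over 7 introns after WBP11 RNAi. They ran from -1.43 to 4.21 points over 13 introns after SNW1 RNAi and from -1.81 to 4.93 points over 8 introns after WBP11 auxin. KIF23, the motor subunit of centralspindlin, ran from -1.90 to 2.03 points over 4 introns after WBP11 auxin. Its intron 8, the 153 bp sequence shown above, was at 0.360% after WBP11 RNAi, 0% after SNW1 RNAi and 1.30% in their control, and at 0.632% after WBP11 auxin and 2.54% in the auxin control. KIFC3, the other C-terminal kinesin measured, had no intron among 5, 7 and 7 that rose, with the highest difference at 8.36 points after SNW1 RNAi.

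In KIFC2 the retained introns were spread from intron 6 to intron 16, with introns between them that stayed near their control. After WBP11 auxin its introns 3, 4, 11 and 14 stood at 2.90%, 1.63%, 5.31% and 0.817%, while introns 6, 7 and 13 were all above 69%. Intron 16 stood at 70.3% after WBP11 auxin and was already at 61.0% in the auxin control, a difference of 9.28 points (-5.48 to 22.7). Intron 5 was just under the limit, at 9.73% after WBP11 auxin and 0.220% in the auxin control, a difference of 9.51 points (4.64 to 17.2). In KIF22 after WBP11 auxin, intron 13 at 67.6% stood alone, and the 6 other introns measured lay between 11.4% and 19.8%.

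**Figure D3:**
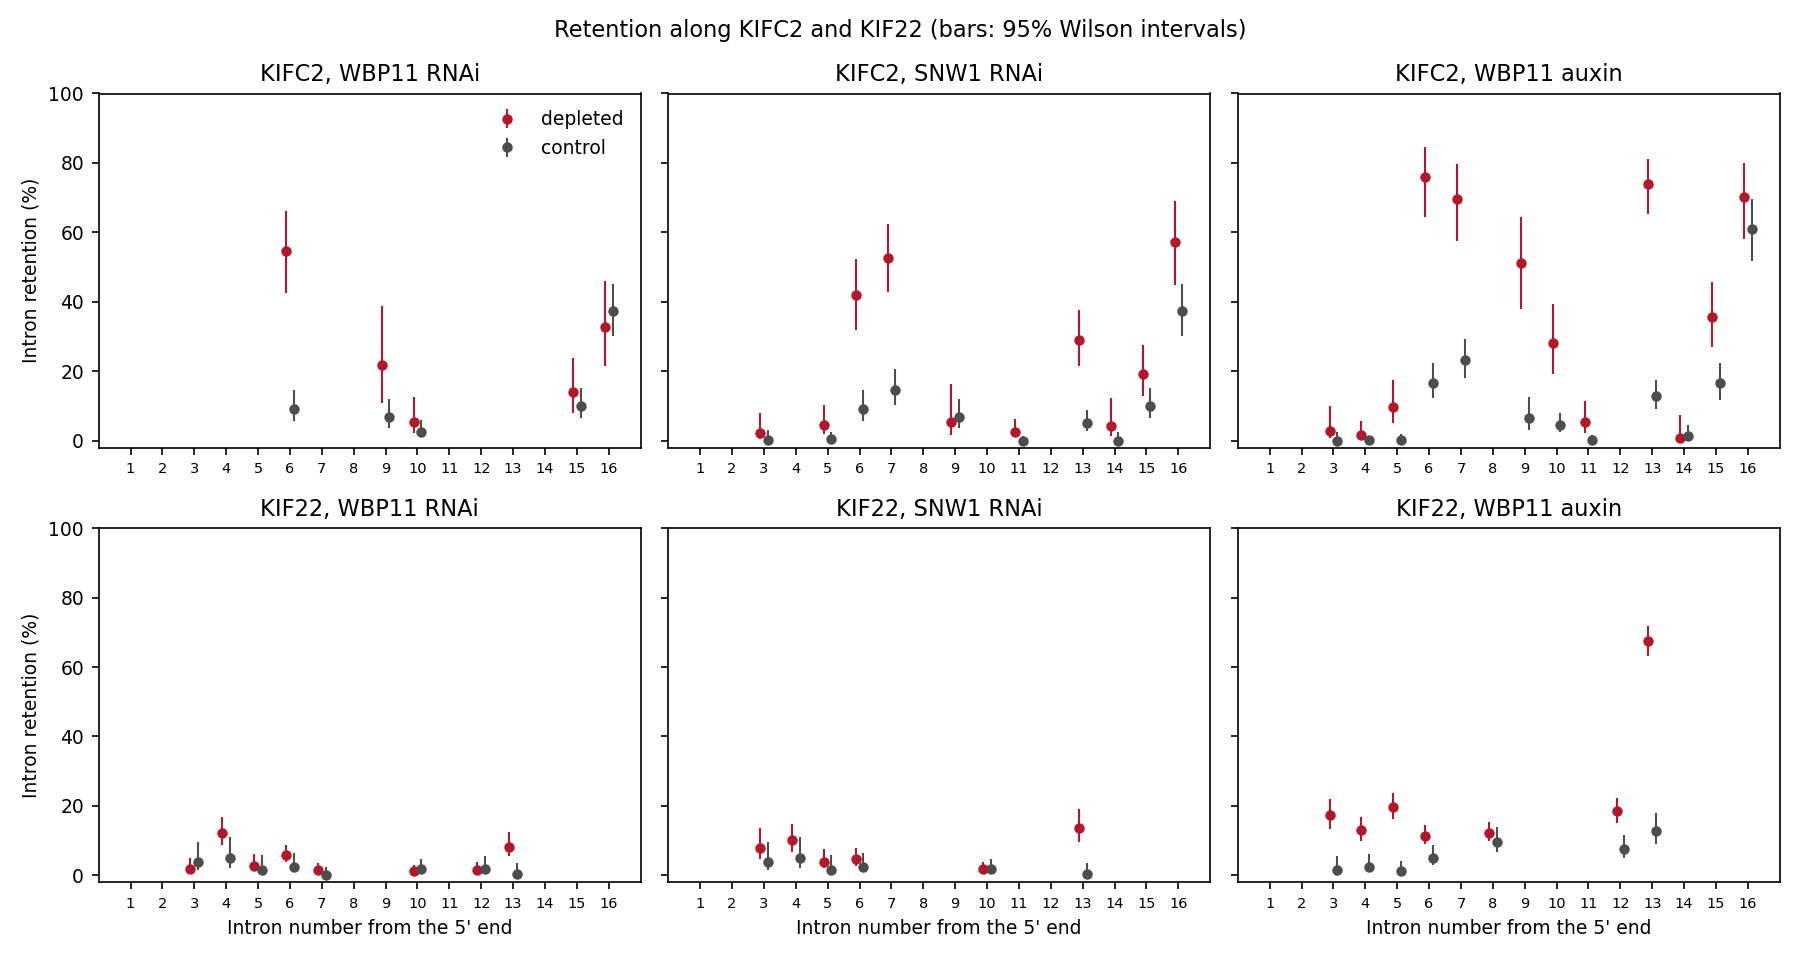
Retention in percent (y axis) by intron number from the 5' end (x axis) for KIFC2 (top) and KIF22 (bottom). Red points are the depleted library and grey points its control, with 95% Wilson intervals, and missing numbers were not tested in that table. KIFC2 introns 6, 7 and 13 and KIF22 intron 13 stand highest above their control after WBP11 auxin.

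Many of the introns that rose were short, with 16 of the 27 at up to 100 bp. Short introns were common among rises in general. After WBP11 auxin, 1437 of the 3015 introns that rose over all genes were up to 100 bp, beside 15 of the 23 kinesin rises. Of the kinesin introns up to 100 bp, 15 of 23 rose after WBP11 auxin, 65.2%, beside 39.2% of all introns of that length. Above 100 and up to 500 bp it was 5 of 36, 13.9%, beside 12.7%, and over 500 bp 3 of 39, 7.69%, beside 6.03%. The median length was 91 bp among the kinesin introns that rose and 478 bp among those within 10 points. The matching medians over all introns were not taken. Leaving out KIFC2, 11 of 16 kinesin introns up to 100 bp rose. The 8 short introns that did not rise were 3 of KIFC2, 2 of KIFC3 and 1 each of KIF2C, KIF20A and KIF1C, with differences between 1.02 and 9.51 points.

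After SNW1 RNAi, 6 of 21 kinesin introns up to 100 bp rose, 28.6%, beside 26.9% of all introns of that length. Above 100 and up to 500 bp, 4 of 42 rose, 9.52%, beside 23.1%, and none of 28 over 500 bp did, beside 8.70%. After WBP11 RNAi 2 of 15 short kinesin introns rose, 13.3%, beside 16.4% of all short introns, and both were in KIFC2. The share of short kinesin introns that rose stood 26.0 points above that of all short introns in the WBP11 auxin pair, against 1.62 points after SNW1 RNAi and -3.11 points after WBP11 RNAi. The difference between comparisons was not tested.

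**Figure D4:**
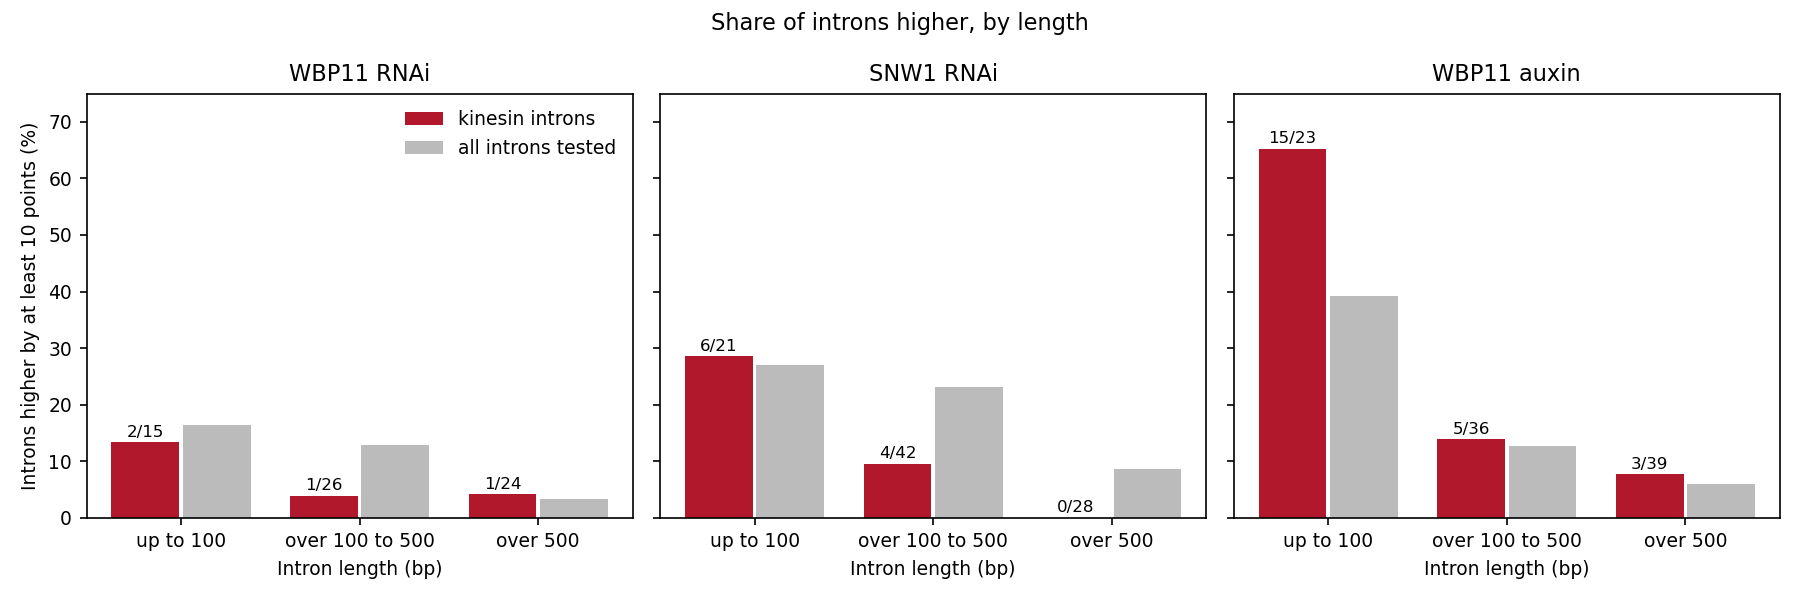
Share of introns higher by at least 10 points (y axis, percent) by intron length in bp (x axis), with kinesin introns in red and all introns tested in grey. Numbers above the red bars are introns higher of introns tested. In the WBP11 auxin panel 15 of 23 kinesin introns up to 100 bp were higher, 65.2%, beside 39.2% of all introns of that length.

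A retention ratio can rise through more reads inside the intron or through fewer spliced reads, and the kinesin introns differed in this. Both quantities are given here relative to the table's total of spliced reads, which is part of a library and not its depth. At the 6 KIFC2 introns that rose after WBP11 auxin, spliced reads stood at 7.80% to 34.7% of the auxin control, while depth stood between 0.837 and 3.22 times the auxin control. At KIFC2 intron 7 the depth was 48.4 after WBP11 auxin and 50.2 in the auxin control, and the spliced reads were 15 after WBP11 auxin and 165 in the auxin control. Recomputed from these listed values, its difference was 53.0 points, against 46.4 with the deposited ratios. KIF11 intron 15 was of the opposite kind, with a depth of 121 after WBP11 auxin and 1.85 in the auxin control, beside 220 spliced reads after WBP11 auxin and 208 in the auxin control. KIF22 intron 13 lay between, with scaled depth 9.23 times that of the auxin control and 59.8% of its spliced reads.

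The KIFC2 introns that rose had spliced reads at 19.5% to 20.5% of control after WBP11 RNAi and at 34.1% to 51.0% after SNW1 RNAi. Over the KIFC2 introns that stayed within 10 points, spliced reads were low as well. They stood at 40.3% of control after WBP11 RNAi (33.6 to 48.1, 3 introns), 66.7% after SNW1 RNAi (60.0 to 74.1, 6 introns) and 33.4% after WBP11 auxin (29.9 to 37.3, 6 introns). In these bulk samples fewer cells that make a transcript and less of it per cell cannot be told apart. Scaled depth was below control at 4 of the values in the 3 comparisons, all in KIFC2, and above it at every intron of another gene that rose.

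**Figure D5:**
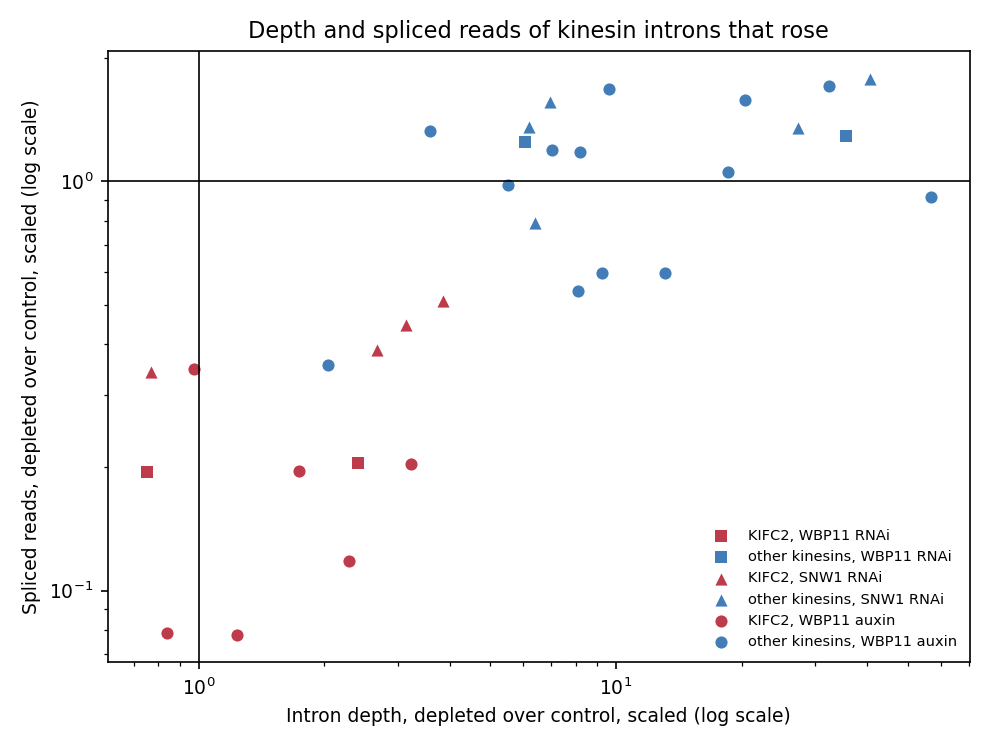
Depleted over control for intron depth (x axis) and spliced reads (y axis), both on log scales and relative to the table's spliced-read total, for kinesin introns that rose. Red symbols are KIFC2 and blue symbols other kinesins, with squares for WBP11 RNAi, triangles for SNW1 RNAi and circles for WBP11 auxin. The KIFC2 points all lie at or below 51.0% of the control in spliced reads, and introns with a control depth of 0 are not drawn.

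Of the kinesin introns, 34 in 15 genes were tested in all 3 tables. KIFC2 intron 6 and KIF15 intron 21 rose in each of the 3 comparisons. No share over all introns tested in all 3 tables was taken. Whether kinesin introns rose repeatedly more or less often than other introns was therefore not tested. The RNAi comparisons share a control library, so they are not separate observations, and the RNAi rises of KIF15 intron 21 both rest on the same 12 control reads, with intervals that include 0. The 4 introns that rose in 2 comparisons were KIF22 intron 13, KIF21B intron 25 and KIF18B intron 5, higher after SNW1 RNAi and WBP11 auxin, and KIFC2 intron 9, higher after WBP11 RNAi and WBP11 auxin. At KIF22 intron 13 the value after WBP11 RNAi was 8.26% against 0.505% in control, a difference of 7.76 points (3.49 to 11.9), just short of the limit. KIF21B intron 25 was at 4.95% after WBP11 RNAi, again with a control depth of 0. In the WBP11 auxin pair it met the depth rule only through depth inside the intron.

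The WBP11 auxin pair shares no library with the RNAi tables. Of 42 kinesin introns tested both after WBP11 RNAi and after WBP11 auxin, 4 rose after WBP11 RNAi and 17 after WBP11 auxin. The 3 that rose in both were 75% of the WBP11 RNAi list and 17.6% of the WBP11 auxin list. Over all 10391 introns tested in both tables, the overlap was 66.8% of the WBP11 RNAi list and 33.7% of the WBP11 auxin list. Of 55 introns tested both after SNW1 RNAi and after WBP11 auxin, 9 rose after SNW1 RNAi and 16 after WBP11 auxin, and the 7 in common were 77.8% of the SNW1 RNAi list and 43.8% of the WBP11 auxin list. Over all 13028 introns tested in both, the overlap was 42.0% of the SNW1 RNAi list and 51.8% of the WBP11 auxin list. With lists of 4 and 9 kinesin introns in the RNAi tables, these shares move far with a single intron, and their difference from all introns was not tested. KIF18B intron 14 rose after SNW1 RNAi and not in the WBP11 auxin pair, and KIF18A intron 7 was at 9.33% after WBP11 auxin and 1.10% in the auxin control, just under the limit.

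The depth rule left out 2 listed kinesin introns, both in the WBP11 auxin pair. KIF17 intron 7 was at 22.8% after WBP11 auxin and 4.75% in the auxin control on sums of depth and spliced reads of 7.77 after WBP11 auxin and 13.9 in the auxin control, and KIF24 intron 11 was at 13.1% after WBP11 auxin and 29.8% in the auxin control on sums of 15.0 after WBP11 auxin and 4.28 in the auxin control. Just inside the rule were KIF15 intron 21 in the RNAi tables, with 12 in control, and a further KIF17 intron with 12 after WBP11 auxin.

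Genes that work with kinesins were listed as well: kinesin light chains, cargo adaptors, spindle proteins, dynein and dynactin, 84 genes in all. After WBP11 RNAi 12 of 163 of their introns were higher, 7.36%, and 1 was lower. After SNW1 RNAi it was 31 of 262, 11.8%, and after WBP11 auxin 37 of 268, 13.8%, with none lower in either. The shares stood beside 9.07%, 16.6% and 13.8% of all introns tested. ACTR1B, an actin-related subunit of the dynactin complex, had the largest rise of these genes in both RNAi tables, at a 235 bp intron kept in 67.0% after WBP11 RNAi, 79.7% after SNW1 RNAi and 21.3% in control. The next was a second ACTR1B intron after WBP11 RNAi, at 41.9% against 9.65% in control. RHOT2, the mitochondrial GTPase that links mitochondria to their motors, was at 46.6% after SNW1 RNAi against 2.45% in control, and at 85.2% after WBP11 auxin and 11.2% in the auxin control, both at an 81 bp intron. HOOK2, a dynein adaptor, was at 69.6% after WBP11 auxin and 11.2% in the auxin control at a 68 bp intron. MAPRE3, a microtubule plus-end protein, had the fall, with 9.19% after WBP11 RNAi and 24.8% in control and a warning of uneven cover after WBP11 RNAi.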

How the data were processed

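PolyA RNA of 5 DLD-1 libraries was sequenced, 1 library per group, and 3 tables each set a depleted library against a control. IRFinder made these comparisons from STAR alignments to hg38, per the file headers. RSEM and bedtools also appear in the submitters' processing notes. For each tool, the version used is not given in the sources used here. Coordinates are hg38, counted from 1. Retention ratios are a fraction as deposited, the depth of an intron is a deposited coverage signal, and spliced reads are a deposited count per intron. None was scaled between libraries. The deposited p-values compare reads of 2 libraries and were not used.

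An intron was tested at a depth plus spliced reads of at least 10 in both libraries and called at a difference of 10 points. No model was fitted. Wilson and Newcombe 95% intervals took the sum of depth and spliced reads for n, so they cover counting error only. Spliced reads summed over introns of a gene had exact binomial 95% intervals. The deposited ratio was off the listed columns by more than 0.001 in 24 of 130, 32 of 182 and 48 of 196 kinesin values. It was kept, and a recomputed ratio was an alternative. Intron numbers and places came from GENCODE 29, matched by gene identifier and exact ends. Reads of a gene and its antisense partner cannot be told apart, since no source used here states the strand setting.

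The kinesin members, the partner list and the classes by role were chosen with earlier results of these data known. Values are given in full for up to 10 rises and 5 falls per comparison and for introns of all 3 tables that rose in 2 or more, and for partners up to 2 rises and 1 fall. Other introns in the text were chosen after their values were seen. The size rule was tried on simulated data holding known changes, with an outcome not reported here. The simulated reads held counting error only and no variation between libraries, so no error rate for these data follows. Alternatives were other depth minimums, size rules and pseudocounts, 1 intron per gene, centring, exactly spliced reads, and leaving out annotated exons, warnings or symbols without a motor. Python 3.11.15, numpy 2.4.6, pandas 2.3.3, scipy 1.17.1 and matplotlib 3.10.9 were used.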

Additional observations from a re-analysis of the deposited data

How the results depend on the processing

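No paired analysis was possible because each group had 1 library, and none could be left out. The 24 intron differences given in full kept their direction and stayed inside their intervals with exactly spliced reads, after centring and with ratios recomputed from the listed columns, a setting added after seeing the data. A ratio from median depth was not run, since the tables list a single depth. After WBP11 RNAi, the 4 introns higher became 1 at a depth minimum of 50, 0 without warnings, 1 with 1 intron per gene, 11 at 5 points, 2 at 20 points, 2 with intervals clear of 0, and 22 or 9 with a 2-fold rule and a pseudocount of 0.01 or 0.05. After SNW1 RNAi, the 10 became 4 without warnings, 1 with 1 intron per gene, 19 at 5 points, 4 at 20 points and 52 with the 2-fold rule at 0.01. After WBP11 auxin, the 23 became 7 without warnings, 4 with 1 intron per gene, 11 at 20 points and 53 with the 2-fold rule at 0.01. These settings test fewer introns or use another size. With 1 intron per gene the share higher was 5.88%, 5.26% and 17.4% in WBP11 RNAi, SNW1 RNAi and WBP11 auxin, beside 5.76%, 10.5% and 9.52% of all genes. The counts of 0 lower became 1 and 1 at 5 points in WBP11 RNAi and WBP11 auxin, 10, 3 and 7 with the 2-fold rule at 0.01 in WBP11 RNAi, SNW1 RNAi and WBP11 auxin, and 1 without a depth minimum in WBP11 auxin. Median changes became 1.36 points (SNW1 RNAi) and 1.02 points (WBP11 auxin) with 1 intron per gene, and -0.86 points and 1.02 points after subtracting the median of all introns. The SNW1 RNAi median is therefore below that of all introns. The other 93 recomputed counts and medians stayed within their limits. Depth limits KIF15 intron 21 in the RNAi tables, KIF18A intron 7, KIF17 intron 12 and KIF20B intron 9, whose intervals include 0.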

Other observations

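Spliced reads over all tested introns of a gene, set relative to the table's total of listed introns, gave a second view of the kinesin transcripts. After WBP11 RNAi several mitotic kinesins stood above control: KIF18B at 298% (266 to 335, 1127 reads against 398), KIF23 at 215% (194 to 239), KIF2C at 206% (189 to 223), KIF22 at 205% (190 to 221) and KIF20A at 170% (156 to 187). KIF1C stood at 104% (97.0 to 111), KIFC3 at 82.9% (75.8 to 90.6) and KIFC2 at 32.5% (27.9 to 37.7). Over the 17 genes the median was 129%.

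The order was different after SNW1 RNAi, where KIF22 stood highest at 225% (206 to 246), KIF18B at 132% (115 to 152), KIF23 at 79.1% (71.4 to 87.7) and KIF2C at 82.7% (75.5 to 90.6). KIFC2 was again the lowest of the genes measured, at 58.2% (53.3 to 63.5). In the WBP11 auxin pair KIF1B stood at 272% (229 to 324), KIF18B at 189% (174 to 205), KIF1C at 62.0% (58.1 to 66.04) and KIF20A at 77.7% (72.8 to 82.9). KIFC2 was the lowest there too, at 25.3% (23.2 to 27.7, 642 reads against 2199). The median was 109% over 19 genes after SNW1 RNAi and 141% over 23 genes after WBP11 auxin. No matching median over all genes was taken in any comparison, including WBP11 RNAi. Abundant genes weigh most in the totals used for scaling. The listed epithelial markers alone held 83485 spliced reads after SNW1 RNAi and 283367 in control. Whether kinesin genes stood above a typical gene under this scaling was not tested. The RNAi values share their control, each group is 1 library, the listed introns differ between tables, and a retained intron lowers its own spliced reads, so these values have no replicate check.

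The controls themselves differed at some kinesin introns. KIF22 intron 13 was at 12.9% in the auxin control and 0.505% in the RNAi control, KIF18B intron 5 at 19.2% and 6.52%, and KIFC2 intron 16 at 61.0% and 37.3%. The labels put these libraries in different cell lines and treatments, and the part of either was not tested.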
